A study of Mus musculus with 23 samples.

Results

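The subject is 44 genes of axon guidance in the embryonic mouse heart: netrins, slits, semaphorins and ephrins, their receptors, and the related RGM and FLRT proteins. They were taken by gene symbol from the count table, which holds 23453 genes beside the targeted ones, and all 44 were found there. Of these, 43 had enough reads to be tested, among 13941 genes tested in all. Slit1 was the exception, with 116 reads over all 23 libraries and 0.872 ± 0.407 CPM (counts scaled by library size with TMM factors; SD, n = 8) in wild-type hearts.

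RNA was sequenced from hearts of C57BL/6 mouse embryos at embryonic day 13.5. The 8 wild-type hearts had GRK2, GRK5 and GRK6 wt/wt and no Cre (labelled ntg). The 8 GRK-haploinsufficient hearts were GRK2 fl/wt, GRK5 fl/fl and GRK6 KO/KO with Nkx2.5Cre, and the 7 triple-knockout hearts were GRK2 fl/fl, GRK5 fl/fl and GRK6 KO/KO with Nkx2.5Cre. Both GRK groups therefore share the GRK6 knockout, the floxed GRK5 alleles and the Cre driver, and they differ by label in the second GRK2 allele. Nkx2.5Cre acts in cells of the cardiac lineage that use the Nkx2-5 gene, so other cells of a heart keep their floxed alleles. The series asks about G-protein coupled receptor kinases, enzymes that phosphorylate activated receptors and thereby dampen their signal, in the forming heart.

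Guidance cues were named for steering axons, but the developing heart and its vessels use them too. Netrins bind Dcc, neogenin and the Unc5 receptors, slits bind the Robo receptors, class 3 semaphorins bind neuropilins paired with plexins, and ephrins on one cell bind Eph receptors on its neighbour. In the heart, Sema3c with Nrp1, Plxna2 and Plxnd1 is known for septation of the outflow tract, Slit2, Slit3 and their receptors Robo1 and Robo2 for valves, septum and caval veins, Efnb2 and Ephb4 for the arterial and venous sides of vessels, and Epha3 for the endocardial cushions.

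Depth ran from 3838166 to 14050559 counts per wild-type library, from 1757257 to 11025358 per haploinsufficient library and from 6657734 to 13864731 per triple-knockout library. A limit of 3 counts corresponds to 0.214 CPM in the deepest library and 1.71 CPM in the shallowest, as far as counting error goes. Whether each replicate was its own embryo is not stated, so the tests weigh differences against the scatter of these libraries, part of which may be technical. Where hearts are counted or ranked, each stands for 1 library. Mean Grk6 was 30.7 CPM in wild-type, 15.7 in haploinsufficient and 14.96 in triple-knockout hearts. In the same order mean Grk5 was 23.9, 13.3 and 14.2 CPM, and mean Adrbk1 (the gene of GRK2) was 54.3, 42.5 and 34.4. These means were lower in each GRK group than in wild type. Adrbk1 ran from 21.8 to 57.4 CPM in the haploinsufficient libraries, overlapping wild type (48.8 to 60.4) and the triple knockout (26.3 to 42.7). Its level therefore does not tell the groups apart in every library. Mean Nkx2-5, the gene named in the Cre driver, was 98.3 CPM in wild-type, 70.2 in haploinsufficient and 49.7 in triple-knockout hearts. By edgeR it differed from wild type by -0.50 (unadjusted p = 0.0019) and -0.98 (unadjusted p = 5.08e-07) in that order, on the log2 scale. Between the GRK groups it differed by -0.48 (unadjusted p = 0.0037), and its part in the guidance genes was not tested. The 10 cardiomyocyte markers summed to between 39676 and 92077 CPM in every library, and none was at 0 in all libraries of a group. Markers of lung, foregut, liver and thymus differed among hearts: their summed level was 6.87 to 56.96 CPM in wild type, 9.87 to 248 in the haploinsufficient group and 11.3 to 151 in the triple knockout. A score of these markers (mean log2 CPM against the wild-type mean) lay over 1.5 in wild-type replicate 4, in haploinsufficient replicates 1, 4, 7 and 8 and in triple-knockout replicates 1, 2, 3 and 7, and these libraries are referred to below as those with a high foregut score. In bulk hearts, fewer cells of a type and less RNA per cell cannot be told apart.

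Between genes, levels were compared per length, as the authors' FPKM (reads scaled by transcript length and library size). In wild-type hearts 41 of the 44 guidance genes reached a mean of 1 FPKM, 19 reached 10, 8 reached 20 and 5 reached 40. The highest was Plxnb2, a plexin receptor of class 4 semaphorins, at 62.3 ± 5.84 FPKM (SD, n = 8). Ephb4, the venous receptor of ephrin-B2, followed at 54.3 ± 5.81, Plxnd1, the endothelial plexin, at 52.6 ± 8.43, Nrp1, a co-receptor of class 3 semaphorins, at 52.3 ± 2.75, and Unc5b, the vascular netrin receptor, at 46.3 ± 3.38. These means lie close together: the library ranges of Ephb4, Plxnd1 and Nrp1 overlap, with 45.4 to 60.8 FPKM for Ephb4, 41.4 to 60.5 for Plxnd1 and 48.3 to 56.6 for Nrp1. The most abundant secreted cues were Ntn1 at 39.4 ± 5.00 FPKM, Slit2 at 28.2 ± 4.35 and Slit3 at 19.2 ± 3.81. Among ephrins, Efnb1 (22.5 ± 5.17 FPKM) and Efna1 (17.7 ± 2.41) were above Efnb2 (8.96 ± 3.30) and Efna5 (5.32 ± 1.96). At the low end stood Unc5a, a netrin receptor known mainly from neurons, at 1.502 ± 0.411 FPKM, Sema3e, the ligand of Plxnd1, at 0.470 ± 0.242, Dcc, the axonal netrin receptor, at 0.435 ± 0.151, and Slit1 at 0.160 ± 0.0785. The 8 semaphorin genes were all below 16.0 FPKM, and the most abundant was Sema6d at 15.9 ± 1.87, a ligand of Plxna1 in the heart.

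**Figure D1:**
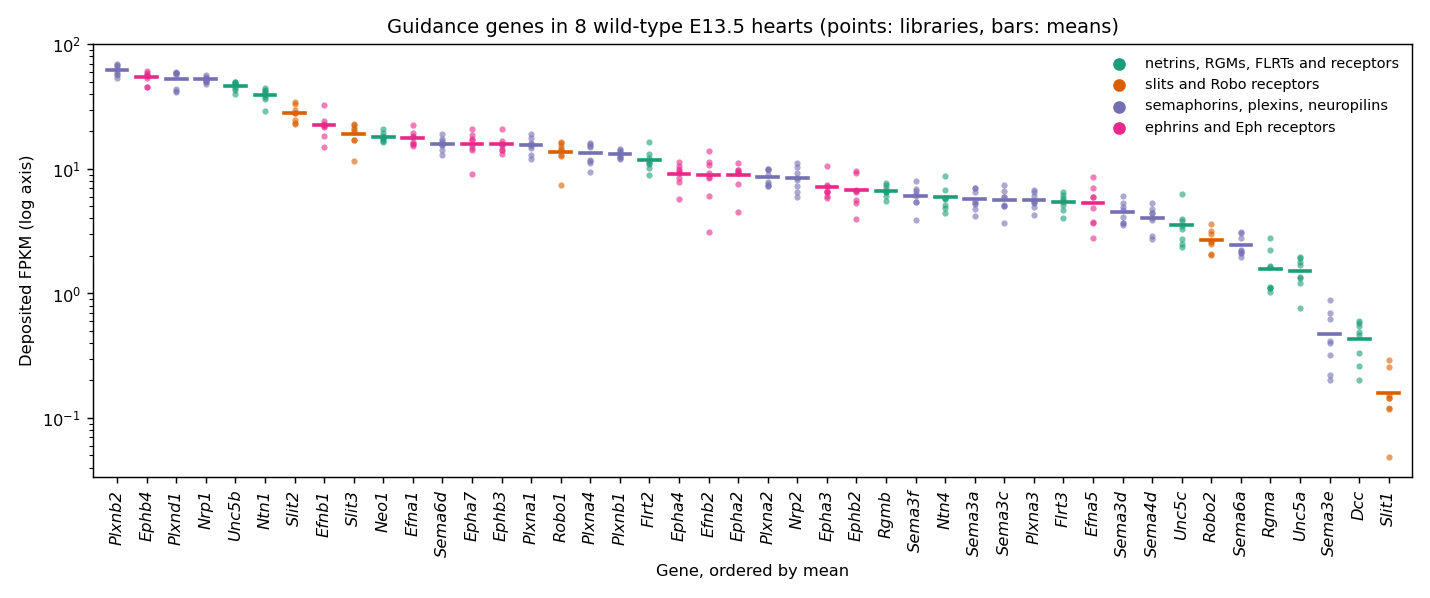
Deposited FPKM on a log axis of the 44 guidance genes in the 8 wild-type hearts, ordered by mean; points are libraries, bars are means and colours are families. Receptors such as Plxnb2 (62.3) and Ephb4 (54.3) lead, and Sema3e, Dcc and Slit1 lie below 1 FPKM.

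With edgeR's quasi-likelihood test and Benjamini-Hochberg adjustment over all 13941 genes, 2 of the 43 tested guidance genes fell in the triple knockout against wild type, Unc5a and Slit2, and 4 fell in the haploinsufficient hearts, Unc5a, Slit2, Plxna4 and Efna5. None rose in either comparison. Of all genes tested, 1.18% were called in the triple knockout (0.488% higher, 0.696% lower) and 2.24% in the haploinsufficient group (0.861% higher, 1.38% lower). Between the GRK groups no guidance gene was called, beside 0.395% of all genes (0.0789% higher and 0.316% lower in the triple knockout). DESeq2 and limma also called none there, and none higher in either comparison with wild type. At an unadjusted p below 0.05, edgeR had 5 higher and 3 lower guidance genes in the triple knockout, 3 higher and 9 lower in the haploinsufficient group, and 9 higher and 0 lower between the GRK groups. Of all genes, 5.24% were higher and 5.54% lower at that threshold in the triple knockout, 8.8% and 8.37% in the haploinsufficient group, and 7.19% and 8.13% between the GRK groups. Both comparisons with wild type share the 8 wild-type libraries.

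The 4 called genes all fell in the haploinsufficient hearts, and of them only Slit2 and Unc5a also fell in the triple knockout. The sequences just upstream of 3 of the 4 are shown for the shared haploinsufficient direction. They are the 250 bases before the transcript start in RefSeq (GRCm38.p6), 5′ to 3′ on the gene's strand, at chr5:47982905-47983154 (plus strand) for Slit2, chr13:54949161-54949410 (plus) for Unc5a and chr17:62881318-62881567 (minus) for Efna5. Capitals mark matches, on either strand, to the TATA element TATAAA or the GC box GGGCGG.
Slit2: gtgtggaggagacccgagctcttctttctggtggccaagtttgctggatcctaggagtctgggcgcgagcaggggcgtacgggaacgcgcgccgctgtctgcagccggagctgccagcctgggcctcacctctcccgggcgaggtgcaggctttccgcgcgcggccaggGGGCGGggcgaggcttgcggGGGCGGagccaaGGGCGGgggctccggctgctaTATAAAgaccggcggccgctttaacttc
Unc5a: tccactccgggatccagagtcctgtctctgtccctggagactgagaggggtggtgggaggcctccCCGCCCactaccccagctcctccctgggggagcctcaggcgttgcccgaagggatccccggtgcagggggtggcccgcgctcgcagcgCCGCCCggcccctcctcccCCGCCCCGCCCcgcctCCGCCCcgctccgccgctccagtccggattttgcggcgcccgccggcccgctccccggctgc
Efna5: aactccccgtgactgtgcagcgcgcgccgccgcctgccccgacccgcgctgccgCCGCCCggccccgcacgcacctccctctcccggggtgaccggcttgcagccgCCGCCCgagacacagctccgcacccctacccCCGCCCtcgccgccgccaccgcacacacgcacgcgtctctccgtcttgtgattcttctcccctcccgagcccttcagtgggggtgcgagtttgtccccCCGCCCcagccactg
All 3 are rich in G and C, with 69.6% for Slit2, 76.8% for Unc5a and 74.8% for Efna5, against a median of 52.4% over 32536 such upstream windows of the genome and 64.6% over the 46 windows of the 36 guidance genes matched. They hold 25, 25 and 32 CpG dinucleotides in that order, against a median of 6 over all windows and 16 over those of the guidance genes. The Slit2 window has 1 TATA element and 3 GC boxes, that of Unc5a has 5 GC boxes, of which 2 overlap, and that of Efna5 has 4. GC boxes occur in 33.0% of all windows and in 65.2% of guidance gene windows, and the TATA element in 12.3% and 8.7%. Neither a GATA element (AGATAA) nor an NKX element (TNAAGTG), each found in 10% of all windows and 4.3% of guidance gene windows, occurs in these 3 windows. Plxna4 has no entry in the table used.

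Slit2 encodes a large secreted ligand of Robo1 and Robo2. Its level in the 8 wild-type libraries was 230.2, 232, 204, 204, 199, 256, 302 and 288 CPM. In the haploinsufficient libraries it was 126, 123, 191, 107, 192, 207, 116 and 96.6 CPM, and in the triple-knockout libraries 157, 180.3, 132, 145, 147, 156 and 162 CPM. All 7 triple-knockout hearts were below the lowest wild-type heart, and 7 of 8 haploinsufficient hearts were, replicate 6 lying within the wild-type range. The mean was 239 ± 39.4 CPM in wild type (SD, n = 8), 145 ± 44.2 in the haploinsufficient group (n = 8) and 154 ± 15.3 in the triple knockout (n = 7). Slit2 fell 1.56-fold in the triple knockout, by edgeR a log2 fold change of -0.64 ± 0.14 (SE; adjusted p = 0.0162), and 1.65-fold in the haploinsufficient group (-0.72 ± 0.14, adjusted p = 0.00406). No difference was called between the GRK groups (0.08, 95% interval -0.21 to 0.37, adjusted p = 0.823).

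Within the haploinsufficient group, the 4 hearts with a high foregut score had 96.6 to 126 CPM of Slit2, and the 4 others 123 to 207. Without the libraries of a high foregut score the haploinsufficient difference was -0.43 (adjusted p = 0.110) and the triple-knockout difference -0.82, still called. With that score as a term in the fit, the triple-knockout difference was -0.43 (adjusted p = 0.116). Within the library ID sets, Slit2 was lower by -0.47 (IDs 1 to 12, adjusted p = 0.306) and -0.79 (IDs 19 to 30, adjusted p = 0.132) in the triple knockout and by -0.66 (adjusted p = 0.233) and -0.78 (adjusted p = 0.0680) in the haploinsufficient hearts.

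Of the other slit genes and their receptors none was called. Slit3, the ligand known from the diaphragm and heart, was at 100.02 ± 19.4 CPM in wild type, 80.1 ± 19.6 in haploinsufficient and 102.5 ± 34.6 in triple-knockout hearts. The receptors Robo1 (110.3, 99.5 and 98.8 CPM in the same order) and Robo2 (23.2, 26.8 and 27.5 CPM) stayed within -0.15 and 0.26 on the log2 scale of wild type in both comparisons, with adjusted p of 0.487 or more. Slit2 spans chr5:47983155-48305778 on the plus strand in the mm10 annotation of the study, and the microRNA gene Mir218-1 lies in it without sharing exonic bases.

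Unc5a encodes a transmembrane netrin receptor that can mediate repulsion. In wild-type libraries its level was 7.06, 7.72, 3.25, 5.39, 7.10, 8.13, 5.12 and 5.46 CPM. The haploinsufficient libraries had 1.98, 0, 0.888, 2.26, 0.4999, 1.84, 1.89 and 0.767 CPM, and the triple-knockout libraries 2.45, 1.12, 0.138, 2.57, 1.72, 0.867 and 1.70 CPM. Every GRK heart was below every wild-type heart. Groups without overlap were found for 0.933% of all genes in the triple knockout, and for 2 guidance genes there (Unc5a and Slit2), and for 0.452% of all genes in the haploinsufficient comparison, and for Unc5a alone among the 43. Between the GRK groups the ranges of all 43 overlapped, beside 0.0933% of all genes without overlap.

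Unc5a fell 4.04-fold in the triple knockout, by edgeR a log2 fold change of -2.02 ± 0.38 (SE; adjusted p = 0.00363), and 4.63-fold in the haploinsufficient group (-2.21 ± 0.40, adjusted p = 0.00203). No difference was called between the 2 GRK groups (0.20, 95% interval -0.68 to 1.07, adjusted p = 0.868). Reads were few: 378 over the 8 wild-type libraries, 55 over the 8 haploinsufficient and 101 over the 7 triple-knockout libraries. Haploinsufficient replicate 2, the shallowest library, had 0 reads, which allows up to 1.71 CPM. Leaving out any single library kept both calls, with log2 fold changes of -2.27 to -1.82 and -2.35 to -2.06. Without the libraries of a high foregut score the values were -1.98 and -2.78. Within library IDs 1 to 12 alone the difference was -2.10 in the triple knockout (adjusted p = 0.151) and -2.04 in the haploinsufficient hearts (adjusted p = 0.407), and within IDs 19 to 30 the triple-knockout difference was -1.94 (adjusted p = 0.0664).

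**Figure D2:**
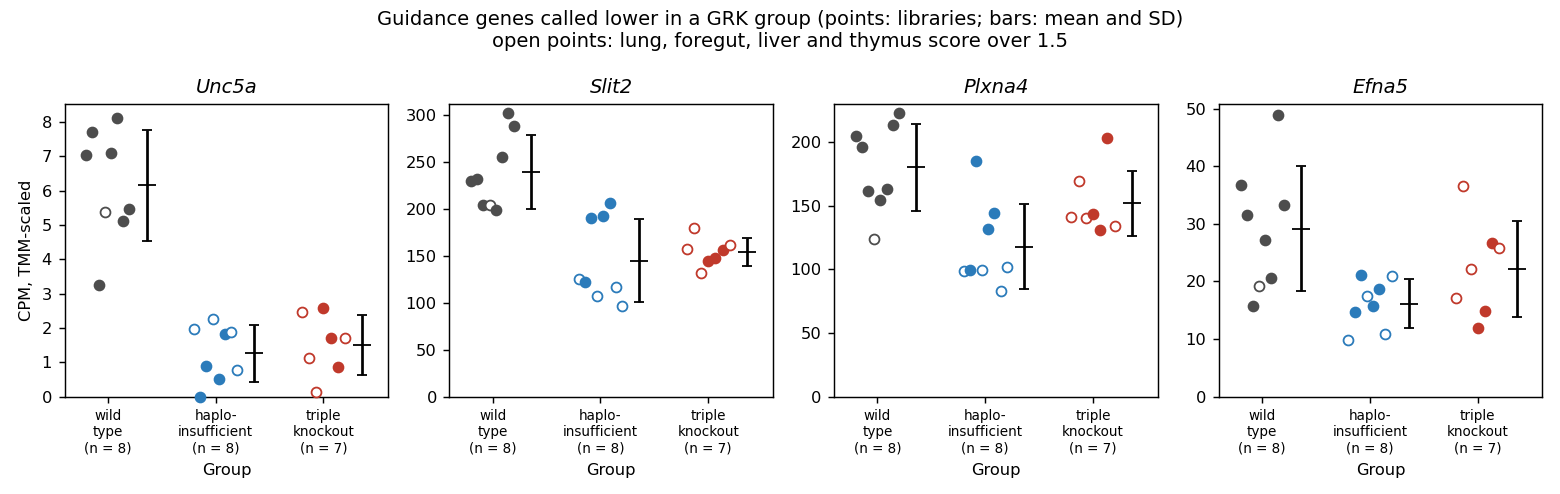
TMM-scaled CPM of Unc5a, Slit2, Plxna4 and Efna5 in each library by group, with mean and SD; open points are libraries with a high foregut score. The Unc5a values of both GRK groups (0 to 2.57 CPM) lie below the lowest wild-type heart (3.25 CPM), while the ranges of Plxna4 and Efna5 overlap.

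Unc5a lies at chr13:54949432-55006018 on the plus strand in the deposited mm10 annotation, with 16 exonic blocks of 3974 bases in all. It ends 439316 bases before Grk6, which starts at 55445334 on the same chromosome and strand and is knocked out in both GRK groups. Its last exon shares 34 bases with Hk3, a hexokinase gene on the opposite strand, and the libraries keep no strand, so reads from those bases cannot be assigned to a strand. Hk3 had mean levels of 2.42, 4.34 and 5.01 CPM in wild-type, haploinsufficient and triple-knockout hearts, and differed from wild type by 0.84 (edgeR adjusted p = 0.175) and 1.02 (adjusted p = 0.145) on the log2 scale, opposite in sign to Unc5a. Of the 37 other tested genes within 1 Mb of Unc5a or Grk6, edgeR, DESeq2 and limma called none in the triple knockout, and 1 rose in the haploinsufficient hearts. At an unadjusted p below 0.05, edgeR had 1 higher and 5 lower of the 37 in the triple knockout. In the haploinsufficient hearts it had 6 higher and 2 lower. Over all genes 1.18% and 2.24% were called in these comparisons. At the unadjusted threshold 5.24% were higher and 5.54% lower in the triple knockout, and 8.8% and 8.37% in the haploinsufficient hearts. The gene that rose was Rab24, a small GTPase of autophagy (0.33 ± 0.09, edgeR adjusted p = 0.0403). Leaving out 1 library ended that call in 11 of 23 fits, at 0.30 to 0.34 with a highest adjusted p of 0.0973. The median difference of the 37 was -0.004 in the triple knockout and 0.05 in the haploinsufficient hearts, against 0.009 and 0.01 over all genes tested. Every heart of both GRK groups carries the GRK6 knockout allele, so effects of that allele and its neighbouring sequence and of the loss of the kinases cannot be told apart in this design. Other guidance genes on a targeted chromosome were Sema4d, 3.65 Mb from Grk6, Rgmb and Efna5, 11.01 and 35.8 Mb from Nkx2-5 on chromosome 17, and Slit1, 19.1 Mb from Grk5 on chromosome 19.

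**Figure D3:**
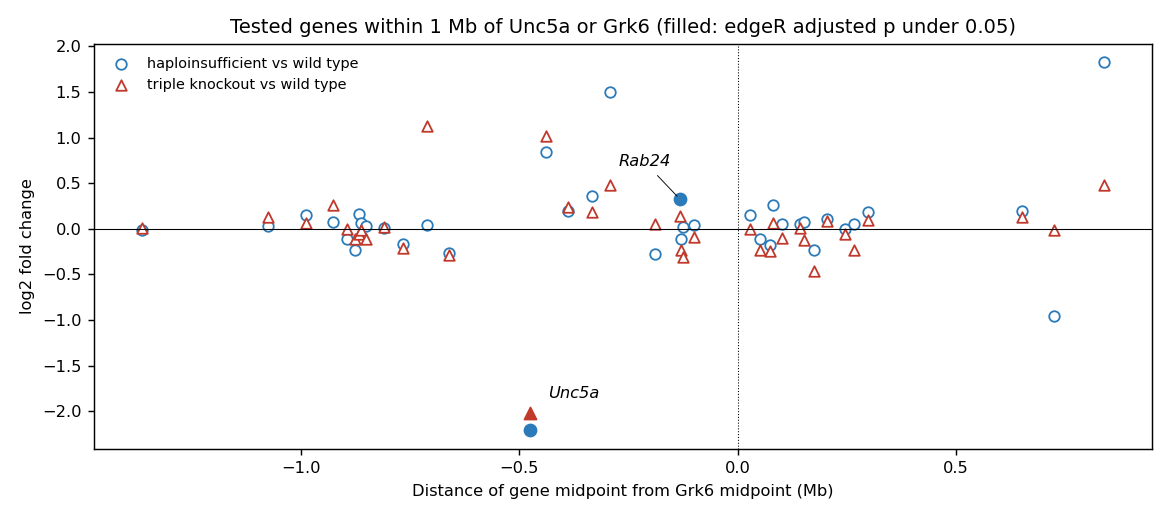
Log2 fold changes against wild type of all tested genes within 1 Mb of Unc5a or Grk6, plotted by distance from the midpoint of Grk6 in Mb; circles are haploinsufficient and triangles triple-knockout hearts, and filled symbols passed the test. Unc5a stands at -2.21 and -2.02, and the other filled symbol is Rab24 at 0.33.

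The ligand and the other receptors of the netrin group were not called. Ntn1, the main netrin of the heart in these libraries, was at 238 ± 30.8 CPM in wild type, 206 ± 58.8 in haploinsufficient and 216 ± 43.5 in triple-knockout hearts. The 4 haploinsufficient hearts with a high foregut score had 111 to 235 CPM of Ntn1 and the 4 others 237 to 274. In the triple knockout the 4 such hearts had 155 to 220 CPM and the 3 others 246 to 272. Wild-type replicate 4, at 221 CPM, lay within the 180 to 274 CPM of the other wild-type hearts. Ntn4, a basement membrane netrin, was at 14.3, 11.4 and 10.8 CPM (log2 fold change -0.39 ± 0.17 in the triple knockout, edgeR adjusted p = 0.374). Unc5b, the most abundant receptor of the group, differed by 0.02 and 0.08 in the triple-knockout and haploinsufficient hearts, with 95% intervals of -0.23 to 0.28 and -0.17 to 0.33. Haploinsufficient hearts with a high foregut score were at 211 to 265 CPM of Unc5b and the 4 others at 344 to 370. Wild-type hearts were at 253 to 309 CPM. In the triple knockout the ranges overlapped, at 191 to 323 CPM with a high score and 280 to 345 without. Neo1, or neogenin, receptor of both netrins and RGMs, was at 140.2 ± 8.44, 137 ± 12.6 and 159 ± 24.2 CPM. Dcc was at 4.85, 3.95 and 5.51 CPM. The RGM ligands, membrane-anchored proteins that bind neogenin and also act as BMP co-receptors, were Rgmb at 17.8, 16.8 and 19.9 CPM and Rgma at 5.82, 9.30 and 7.18 CPM. Rgma was at 8.41 to 19.7 CPM in the 4 haploinsufficient hearts with a high foregut score and at 3.21 to 7.59 in the 4 others, and at 7.43 to 13.8 CPM in the 4 such triple-knockout hearts and 2.12 to 3.90 in the 3 others. Wild-type replicate 4, at 5.90 CPM, lay within the 3.84 to 9.92 CPM of the other wild-type hearts. The FLRT proteins, adhesion molecules that bind Unc5 receptors, were Flrt2 at 88.9, 81.7 and 106 CPM and Flrt3 at 22.7, 22.5 and 26.1 CPM.

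Plxna4, a plexin receptor of class 3 and class 6 semaphorins, was at 205, 196, 162, 124, 155, 163, 213 and 223 CPM in the wild-type libraries. It was at 98.5, 99.2, 185, 99.6, 131, 144, 82.9 and 102 CPM in the haploinsufficient libraries. In the triple-knockout libraries it was at 141, 169, 140.2, 143, 131, 203 and 134 CPM. In all, 5 of 8 haploinsufficient hearts and no triple-knockout heart lay below the wild-type range. Plxna4 fell 1.52-fold in the haploinsufficient hearts (-0.61 ± 0.15, edgeR adjusted p = 0.0231). Its difference was -0.25 ± 0.15 in the triple knockout (adjusted p = 0.599) and 0.36 between the GRK groups (95% interval 0.05 to 0.67, adjusted p = 0.250). The haploinsufficient call was lost when any of wild-type replicates 1, 2, 7 or 8 or haploinsufficient replicates 1, 7 or 8 was left out, at -0.58 to -0.54 with a highest adjusted p of 0.0615, and with the foregut score as a term (-0.38, adjusted p = 0.126).

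Efna5, a membrane-anchored ephrin that binds EphA receptors, was at 36.8, 31.5, 15.7, 19.2, 27.2, 20.6, 48.9 and 33.3 CPM in the wild-type libraries. It was at 9.90, 14.6, 21.1, 17.5, 15.7, 18.6, 10.8 and 20.9 CPM in the haploinsufficient libraries, and at 17.1, 36.6, 22.2, 11.95, 14.9, 26.7 and 25.8 CPM in the triple-knockout libraries. The groups overlap, although all 8 haploinsufficient values lie below the wild-type median of 29.4 CPM. Efna5 fell 1.81-fold in the haploinsufficient hearts (-0.85 ± 0.23, edgeR adjusted p = 0.0478), and its difference was -0.38 ± 0.23 in the triple knockout (adjusted p = 0.598). This value is next to the threshold, and 14 of the 23 fits that leave out 1 library lost it, at -0.92 to -0.71 with a highest adjusted p of 0.124. The libraries were wild-type replicates 1, 2, 5, 7 and 8, all haploinsufficient replicates but the third, and triple-knockout replicates 3 and 6. Over all 38 alternatives the haploinsufficient difference was called in 16, with adjusted p of up to 0.553. The limma fits and the edgeR fit without the libraries of a high foregut score did not call it.

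Of the 9 endothelial and endocardial markers 3 fell in the haploinsufficient hearts (Cdh5, Tek and Npr3), beside 1.38% of all genes lower, while Cldn5 was at 0.61 (edgeR adjusted p = 0.227) and the 5 others were not called. In the triple knockout Npr3 fell (-0.46, adjusted p = 0.0162), beside 0.696% of all genes lower. The 9 markers summed to 998 to 1314 CPM in wild type, 891 to 1119 in the haploinsufficient group and 1005 to 1225 in the triple knockout. None of the 9 was at 0 in all libraries of a group, and their part in the values of Plxna4, Efna5 and Slit2 was not tested.

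**Figure D4:**
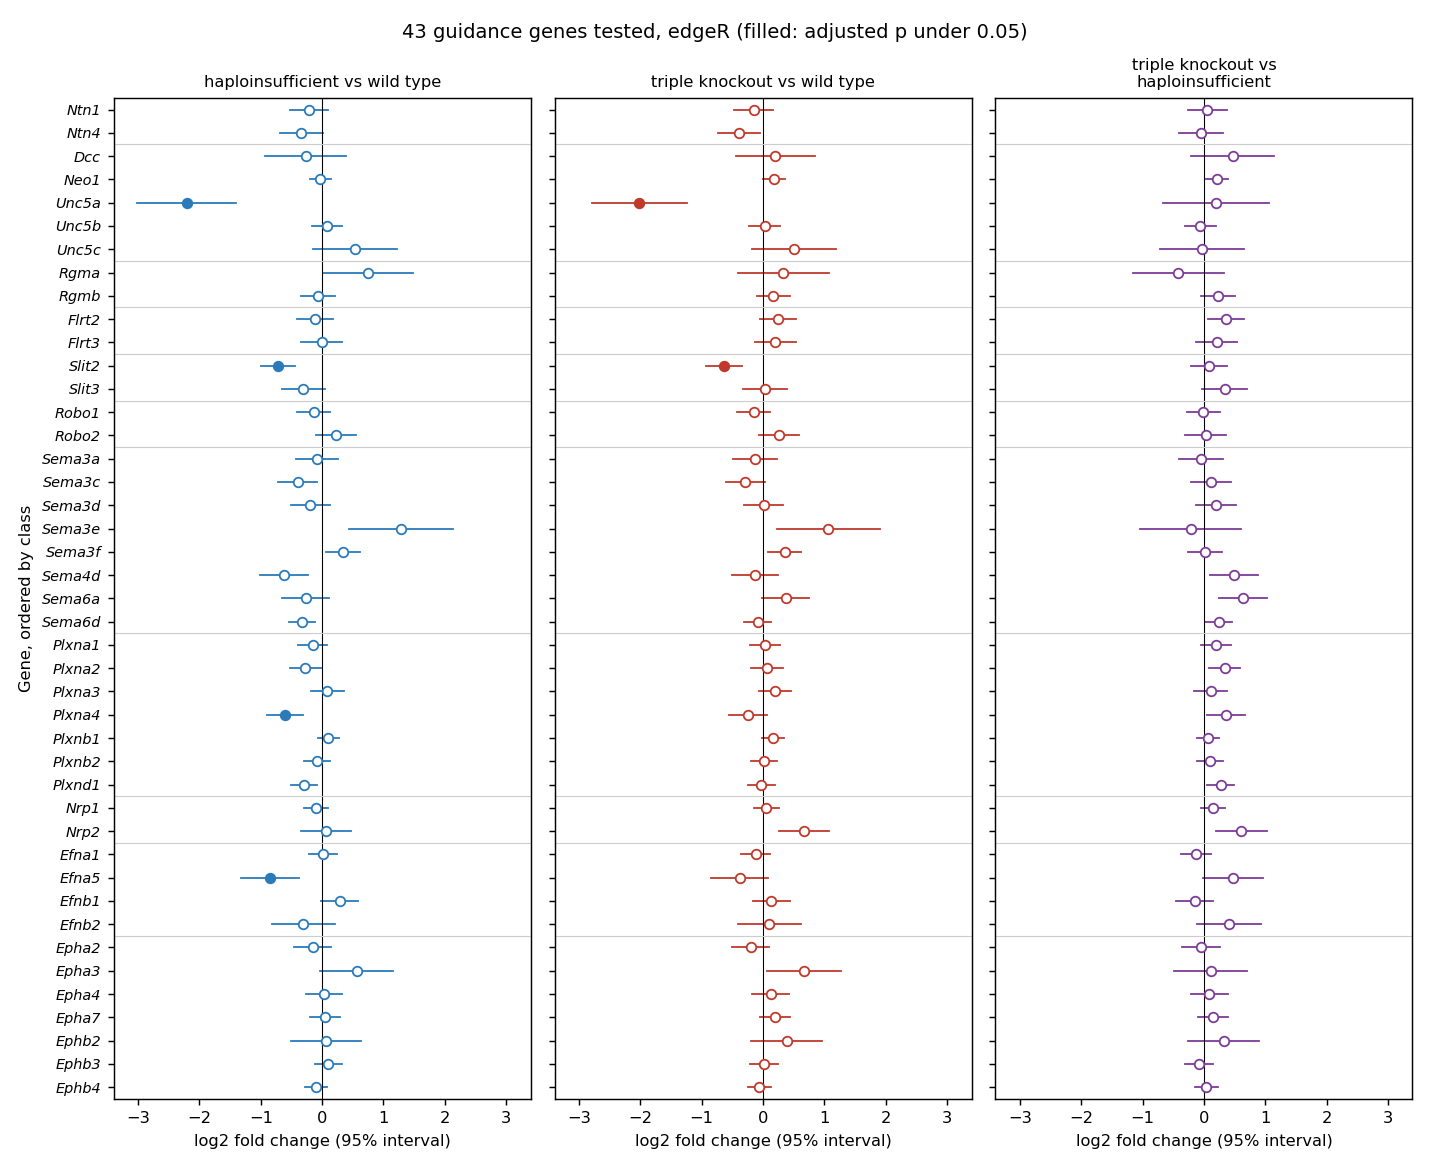
Log2 fold changes with 95% intervals of the 43 tested guidance genes in the 3 comparisons, ordered by class; filled points passed the edgeR test. Most points lie within 0.5 of 0 (37 in the triple knockout, 34 in the haploinsufficient group and 41 between the GRK groups), and the filled points are Unc5a and Slit2 in both comparisons with wild type and Plxna4 and Efna5 in the haploinsufficient one.

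Across the 43 tested guidance genes the median log2 fold change was 0.05 in the triple knockout (28 positive, 15 negative), -0.10 in the haploinsufficient group (16 positive, 27 negative) and 0.11 between the GRK groups (32 positive, 11 negative). Over all genes tested the medians were 0.009, 0.01 and 0.003. Without the libraries of a high foregut score, which leaves 7 wild-type, 4 haploinsufficient and 3 triple-knockout libraries, the medians of the guidance genes were -0.12 (11 positive, 32 negative), -0.14 (13 positive, 30 negative) and -0.02 (19 positive, 24 negative). There, Unc5a and Slit2 remained called in the triple knockout and Unc5a in the haploinsufficient group. At an unadjusted p below 0.05, the triple knockout then had 0 higher and 9 lower guidance genes, the haploinsufficient group 3 higher and 7 lower, and the comparison between the GRK groups 0 higher and 5 lower. Of the 14117 genes tested without these libraries, 0.751%, 0.864% and 0% were called in that order. At the unadjusted threshold 3.97% of them were higher and 4.16% lower in the triple knockout, 6.74% and 6.84% in the haploinsufficient group, and 3.12% and 2.74% between the GRK groups. In the main fit of all 23 libraries, the differences of 37, 34 and 41 guidance genes in that order lay within 0.5 of 0.

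No semaphorin was called. Sema3c, the outflow tract semaphorin, was at 29 ± 5.27 CPM in wild type, 21.4 ± 4.37 in haploinsufficient and 23.5 ± 6.27 in triple-knockout hearts (-0.40 ± 0.15 in the haploinsufficient comparison, edgeR adjusted p = 0.175). Sema6d was at 106, 84.2 and 99.4 CPM (-0.33 ± 0.10, adjusted p = 0.0946) and Sema4d, a ligand of Plxnb1 and Plxnb2, at 18.5, 11.96 and 16.9 CPM (-0.62 ± 0.19, adjusted p = 0.0804), both in the same comparison. Of the 38 alternatives 3 called Sema4d lower there, DESeq2 among them. Sema3a, a repellent of sympathetic axons, was at 40.1, 37.6 and 36.5 CPM, and Sema3d, which acts in venous patterning, at 30.9, 26.6 and 30.9 CPM. Sema3f, the main ligand of Nrp2, was at 21.2, 26.6 and 27.1 CPM, with 0.33 ± 0.13 and 0.35 ± 0.13 in the haploinsufficient and triple-knockout hearts (adjusted p = 0.191 and 0.280). Leaving out haploinsufficient replicate 3 brought 8 guidance genes past the threshold in the haploinsufficient comparison, among them Sema3e, Sema4d, Sema6d and Plxnd1.

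Of the 7 plexins only Plxna4 was called. Plxnd1 was at 385 ± 61.0, 311 ± 41.0 and 377 ± 42.4 CPM (-0.30 ± 0.10 in the haploinsufficient hearts, edgeR adjusted p = 0.122). Plxna2 was at 101, 83.8 and 106 CPM, Plxna1 at 149, 132 and 152, and Plxna3 at 41.2, 43.1 and 46.9. Of the class B plexins, Plxnb1 was at 120.2, 128 and 135 CPM and Plxnb2 at 427, 404 and 435. All 7 plexins had a positive difference between the GRK groups, from 0.07 to 0.36, and 3 of them had an unadjusted p below 0.05, beside 7.19% of all genes higher at that threshold. Nrp1 was at 309 ± 18.6, 289 ± 50.6 and 319.5 ± 28.98 CPM. In the haploinsufficient group Nrp1 was at 221 to 264 CPM in hearts with a high foregut score and 313 to 360 in the others. In the triple knockout these ranges overlapped (263 to 356 and 317 to 340).

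Nrp2, the neuropilin of venous and lymphatic endothelium and of neural crest derivatives, varied widely within the triple knockout. Its level ran from 39.9 to 70.6 CPM in wild type (median 54.1) and from 41.4 to 77.5 in the haploinsufficient hearts (median 51.6). The triple-knockout libraries had 159, 77.8, 88.1, 49.8, 56.2, 56.7 and 114 CPM. Replicates 1, 2, 3 and 7, which exceed all wild-type hearts, are the triple-knockout libraries with a high foregut score, and the 3 others lie within the wild-type range. The difference from wild type was 0.67 ± 0.20 (edgeR adjusted p = 0.118), and -0.06 (adjusted p = 0.953) without the libraries of a high foregut score. The same 4 libraries also had the highest neural scores of the triple knockout. The 13 markers of neurons, neural crest and glia summed to 37.4 to 62.9 CPM in wild type, 30.1 to 87.4 in the haploinsufficient group and 37.8 to 163 in the triple knockout. Of the 8 tested none was called. All 8 were positive in the triple knockout (median log2 fold change 1.03). There 5 had an unadjusted p below 0.05 with edgeR, beside 5.24% of all genes higher at that threshold. None of the 13 was at 0 in all libraries of a group, and the part of these cells in the Nrp2 values was not tested.

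Sema3e, Sema6a and Unc5c, among others, also differed between libraries with a high foregut score and others, in part of the groups. In the triple knockout Neo1 was at 171 to 187 CPM with a high score and 123 to 144 without. There Flrt2 was at 109 to 145 against 69.6 to 82.7 CPM and Ephb2 at 38.1 to 95.9 against 20.9 to 26.7. The haploinsufficient ranges of these genes overlapped. Ntn1, Nrp1 and Unc5b were instead lower in the haploinsufficient hearts with a high score, as given above. Sema3e was at 7.44 to 16.2 CPM in the 4 haploinsufficient hearts with a high foregut score and at 1.75 to 3.90 in the 4 others, with 0.882 to 5.64 CPM in wild type. Its difference from wild type was 1.28 ± 0.41 in the haploinsufficient hearts (edgeR adjusted p = 0.102) and 1.07 ± 0.41 in the triple knockout (adjusted p = 0.285), and 0.30 and 0.32 in that order without the libraries of a high score. Sema6a, a transmembrane semaphorin, was at 25.9 to 32.1 CPM in the 4 triple-knockout hearts with a high score and at 8.17 to 19.8 in the 3 others. In the haploinsufficient hearts the 4 with a high score were at 12.1 to 18.4 CPM and the 4 others at 11.02 to 16.2, and wild-type replicate 4 (13.9 CPM) was the lowest wild-type library for Sema6a. Between the GRK groups Sema6a differed by 0.64 ± 0.19 (adjusted p = 0.123). Unc5c, a netrin receptor, ran from 19.5 to 116 CPM in the triple knockout and from 26.8 to 98.5 in the haploinsufficient hearts, against 24.1 to 60.5 in wild type. Its 3 highest libraries were triple-knockout replicate 7 and haploinsufficient replicates 7 and 8, all with a high foregut score. In the triple knockout the 4 hearts with a high score were at 40.6 to 116 CPM and the 3 others at 19.5 to 24.9, in the haploinsufficient group the ranges overlap (31.4 to 98.5 and 26.8 to 36.7), and wild-type replicate 4, the wild-type library with a high score, was the highest of its group.

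**Figure D5:**
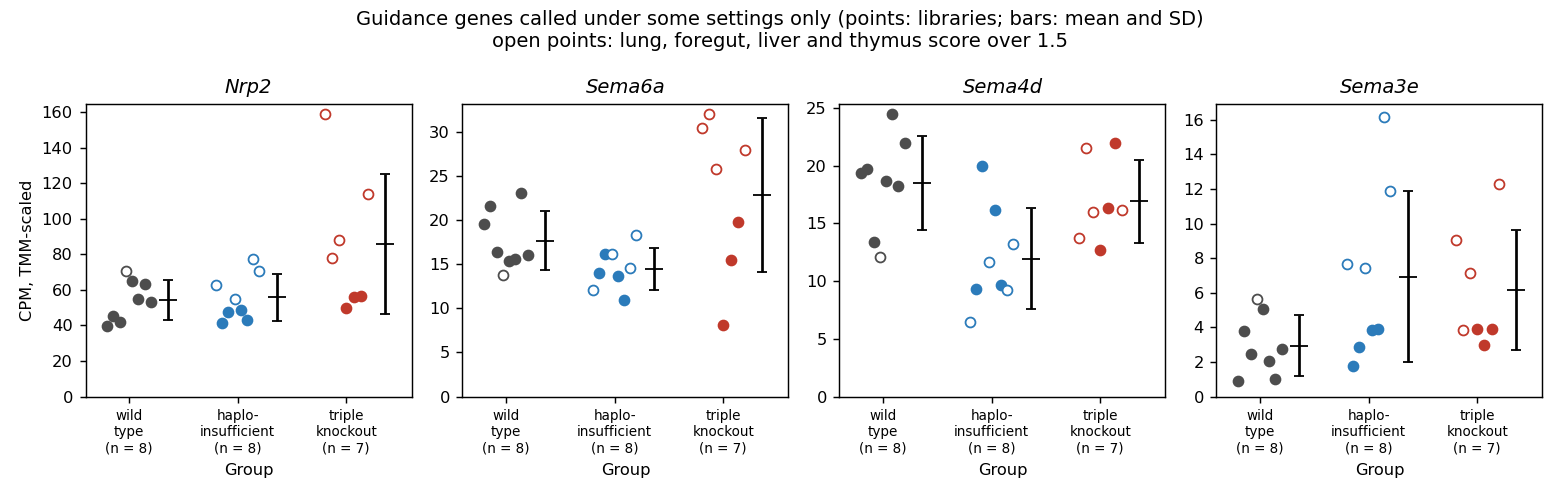
TMM-scaled CPM of Nrp2, Sema6a, Sema4d and Sema3e in each library by group, with mean and SD; open points are libraries with a high foregut score. The 4 open triple-knockout points of Nrp2 (77.8 to 159 CPM) and Sema6a (25.9 to 32.1 CPM) lie above the filled ones, as do the 4 open haploinsufficient points of Sema3e (7.44 to 16.2 CPM).

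Among the ephrins, Efna1, which acts in the cushions and vessels, was at 24.7, 24.8 and 22.7 CPM in wild-type, haploinsufficient and triple-knockout hearts. Efnb1 was at 75.0, 90.7 and 82.2 CPM, and Efnb2, the arterial ephrin, at 40.3 ± 15.4, 31.6 ± 15.9 and 42.0 ± 12.4 CPM. None of the 7 Eph receptors was called. Ephb4 differed from wild type by -0.06 (95% interval -0.24 to 0.12) in the triple knockout and by -0.10 (-0.28 to 0.08) in the haploinsufficient hearts, at 245 ± 22.7, 228 ± 29.4 and 235 ± 17.8 CPM. Ephb3 was at 67.8, 72.3 and 68.5 CPM, Epha7 at 75.7, 77.8 and 86.8, Epha4 at 60.9, 61.8 and 66.0, and Epha2 at 36.03, 31.9 and 31.6. Epha3, the cushion receptor, was at 29.3 ± 5.77 CPM in wild type, 42.2 ± 20.8 in haploinsufficient and 46.4 ± 27.6 in triple-knockout hearts (0.57 ± 0.29 and 0.67 ± 0.29, edgeR adjusted p = 0.319 and 0.374). Ephb2 was at 32.9, 33.1 and 42.9 CPM. The high values of Epha3 came from the libraries with a high foregut score: 44.6 to 73.4 CPM in 4 haploinsufficient hearts against 19.8 to 30.1 in the 4 others, and 44.4 to 91.9 in 4 triple-knockout hearts against 19.4 to 26.2 in the 3 others. Without these libraries its differences from wild type were -0.18 and -0.29.

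A list of 70 further guidance genes, of which 60 were tested, covers other ligands and receptors and the proteins that act below them in the cell. In the triple knockout 1 fell and none rose (median log2 fold change 0.07, with 10 higher and 3 lower at an unadjusted p below 0.05), and in the haploinsufficient hearts 3 fell and none rose (median -0.04, with 1 higher and 11 lower at an unadjusted p below 0.05). Over all genes 0.696% and 1.38% fell in these comparisons, and at the unadjusted threshold 5.24% were higher and 5.54% lower in the triple knockout and 8.8% and 8.37% in the haploinsufficient hearts. DESeq2 and limma called none higher in either comparison. Dpysl3, a collapsin response mediator that acts below semaphorin receptors on the cytoskeleton, fell in both (-0.61, edgeR adjusted p = 0.0105, and -0.56, adjusted p = 0.0114). Srgap1, a GTPase-activating protein that binds Robo receptors, fell in the haploinsufficient hearts (-0.78, adjusted p = 0.0469), as did the secreted semaphorin Sema3b (-0.45, adjusted p = 0.0331). In the triple knockout Sema3b was at -0.43 (edgeR adjusted p = 0.0623), where DESeq2 called it lower and limma did not. Srgap1 was at -0.16 there (edgeR adjusted p = 0.856). Leaving out 1 library ended the call of Srgap1 in 12 of 23 fits and that of Sema3b in 9, with -0.88 to -0.67 for Srgap1 over the 23 fits (highest adjusted p 0.116) and -0.52 to -0.41 for Sema3b (highest adjusted p 0.0802), while both calls of Dpysl3 held in all 23. Without the libraries of a high foregut score, Dpysl3 was at -0.44 (adjusted p = 0.0695) and -0.32 (adjusted p = 0.125). In that fit 59 of the further guidance genes were tested, and none was called in the triple knockout. Sema5a alone was called in the haploinsufficient hearts, where it was lower. Between the GRK groups none of the 60 was called by edgeR, DESeq2 or limma (median 0.17, with 8 higher and 1 lower at an unadjusted p below 0.05, beside 7.19% and 8.13% of all genes).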

How the data were processed

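The 23 libraries of hearts (8 wild-type, 8 haploinsufficient and 7 triple-knockout) were grouped by their genotype labels. The authors deposited whole-number read counts per gene, obtained with HTSeq after alignment to mm10 by TopHat2 (version 2.0.10) on Bowtie2, per the submitters' processing notes. The authors also deposited FPKM values, which the notes credit to Cufflinks (version 2.1). Per the labels' protocols, ribosomal RNA was depleted and reads were single-end without strand.

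Counts were tested with edgeR (version 4.0.16, R 4.3.3) by the quasi-likelihood test on all 23 libraries together, with 3 group coefficients, a term for the library ID set (1 to 12 or 19 to 30), TMM scaling and the expression filter at a minimum count of 10 and total of 15. Two-sided p-values were adjusted by Benjamini-Hochberg over the 13941 genes tested, without the targeted genes; genes under 0.05 were called, and rose and fell are used for called genes only. CPM use TMM-scaled library sizes and compare libraries within a gene, and FPKM compare genes. Alternatives were RLE scaling, DESeq2 (version 1.42.0), limma (version 3.58.1) on log2(FPKM + 0.1) or log2(FPKM + 1) over genes with a mean of at least 0.1 FPKM or with no filter, no filter on counts, other terms, subsets of libraries and each library left out.

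The 44 members and the other lists were chosen with earlier results of these data known. Every guidance gene is accounted for, those called in any comparison in full; of further guidance genes up to 4 called, and of genes within 1 Mb of Unc5a or Grk6 up to 6 called, are named with the smallest p, besides genes that share exonic bases with a member. Those were Hk3 with Unc5a (34 bases, opposite strand), Mir1903 with Nrp1 (80) and A730056A06Rik with Rgma (255, opposite strand). Marker lists covered cardiomyocytes, endothelium, epicardium, cushion mesenchyme, smooth muscle, neural cells, lung with foregut, liver and thymus, and macrophages. Epicardial, cushion mesenchyme and cardiomyocyte markers had no called gene against wild type; of 6 smooth muscle markers 1 fell and of 6 macrophage markers 1 rose and 1 fell in the triple knockout, and 2 of 9 tested lung, foregut, liver and thymus markers (Foxf1 and Cldn6) rose in the haploinsufficient group. No pair of libraries in a group agreed within sampling noise (lowest chi-square per degree of freedom 5.20).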

Additional observations from a re-analysis of the deposited data

Results flagged for a closer look

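Among the guidance genes, 9 of 129 sets of values (a gene in a group) had 1 library set apart from the others of its group. The rule was the gap relative to the range on the log2 CPM scale, and chance alone sets apart about 1 in 20. In wild type, Robo1 was lowest in replicate 3 (61.8 CPM, the others 98.1 to 136), Epha2 was lowest in replicate 7 (18.8, the others 31.5 to 46.2) and Epha3 was highest in replicate 4 (42.6, the others 24.8 to 31.4), the wild-type library with a high foregut score. In the haploinsufficient group the shallowest library, replicate 2, was lowest for Epha2 (16.9, the others 27.96 to 43.6) and for Unc5a (0.0, the others 0.4999 to 2.26). The 0 reads of Unc5a stand at -2.85 on the log2 scale, a value set by the prior count added before taking logs. In the triple knockout, replicate 7 was lowest for Unc5b (191, the others 267 to 345) and for Nrp1 (263, the others 314 to 356), the vascular netrin and semaphorin receptors. Triple-knockout replicate 1 was highest for Sema3f (39.2, the others 21.5 to 27.5) and for Ephb4 (273, the others 222 to 237). Both of these triple-knockout libraries had a high foregut score, and its part in these values was not tested.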

How the results depend on the processing

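Unc5a, Slit2, Plxna4 and Efna5 kept their direction under all 38 alternatives run, in the comparisons with wild type where they were called. The count of guidance genes called in the triple knockout (2) was 1 with the foregut or the neural score as a term and in the 3 limma fits on FPKM (Unc5a in each), 1 with library IDs 1 to 12 alone (Nrp2) and 0 with IDs 19 to 30 alone, and 2 to 3 when 1 library was left out. In the haploinsufficient group (4) it was 0 with IDs 1 to 12 alone, 1 with IDs 19 to 30 alone, 1 without libraries of a high foregut score, and 2 to 8 with 1 library left out (2 without wild-type replicates 1, 2, 7 or 8 or haploinsufficient replicates 1, 7 or 8, and 8 without haploinsufficient replicate 3). Between the GRK groups (0) it was 2 with IDs 1 to 12 alone (Nrp2 and Sema6a), 1 with the foregut score as a term (Nrp2), and 0 to 2 with 1 library left out (2 without haploinsufficient replicate 3, 1 without triple-knockout replicate 4). Fewer libraries enter the fits on 1 ID set; the cause of the other changes was not tested. Over all genes, the 165, 312 and 55 calls were 279, 528 and 251 with DESeq2, and 106, 122 and 0 without libraries of a high foregut score; they were 50, 20 and 176 with IDs 1 to 12 alone and 51, 179 and 1 with IDs 19 to 30 alone. With only the groups compared in the fit, the triple knockout had 296 and the comparison between the GRK groups 1, and with the foregut score as a term the haploinsufficient group had 177 and the GRK groups 171. Between the GRK groups there were 88 with no filter on counts and 8, 0 and 0 in the limma fits, and in the triple knockout 84 in the limma fit without a filter. With 1 library left out the counts ran from 116 to 184, 152 to 612 and 10 to 416. Same-numbered libraries correlated over 0.1 in 5 of 22 pairs (r from -0.20 to 0.47). As differently numbered pairs were not examined, this cannot decide whether the numbers pair the samples. With the replicate block in place of the ID set, 2, 3 and 0 guidance genes were called, and 146, 220 and 16 genes in all. Efna5 was lost there (-0.81, edgeR adjusted p = 0.0792). Slit2 in the triple knockout was at -0.58 (adjusted p = 0.109) with the neural score as a term and at -0.59 to -0.57 in the limma fits (adjusted p from 0.101 to 0.166). Depth limits the low genes: 41 of 44 reached 1 FPKM, and Slit1 was not tested.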
